A study of Amphiura filiformis with 28 samples.

Results

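Gene expression was compared between distal segments of brittle star (*Amphiura filiformis*) arm explants at 5 days post amputation (dpa) and at 3 dpa. The comparison rests on 7 of the 28 RNA-seq samples of the series, 3 distal samples at 5 dpa (replicates 1, 2 and 5) and 4 at 3 dpa (replicates 1 to 4), which were chosen by segment and day from their labels. An explant here is a piece of arm that was cut from the animal and carries a proximal wound, on the side of the disc, and a distal wound, on the side of the arm tip. The explants were kept in culture, and each was then dissected into a distal, a medial and a proximal segment. All groups used here come from wild-type animals, and no group received an experimental treatment other than amputation. For explants, the study reports sedation in magnesium chloride at amputation and before dissection. Medial segments are used at 5 dpa (3 samples) and 3 dpa (4 samples), and proximal segments at 5 dpa (3) and 3 dpa (3). An arm regeneration time course adds 8 single samples, among them a control that the study describes as a non-regenerating arm segment. Animal age is not among the labels used here, and each sample pools segments of many explants. The study's methods describe each sample as a batch of its own that was homogenized separately. The p-values thus measure the spread between such batches, pooled over the 6 groups of segment and day. Samples of different segments on the same day may share explants.

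Brittle stars regrow a lost arm from a small bud of dividing cells that forms under the healed wound epidermis and extends outwards with a differentiation gradient behind its tip. In explants the distal wound regenerates in this way, whereas the proximal wound heals without regrowth and the medial segment is away from both. Early in echinoderm and other animal regeneration, closure of the wound and an immune response come first, and cell proliferation and growth follow. The comparison asks which genes separate a distal segment 5 days after the cut from one 3 days after it. The same comparison in medial and proximal segments shows how much of the change also occurred away from the regenerating end.

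Expression is given as TPM, transcript abundance corrected for transcript length and library total, which the authors rescaled by TMM, a factor per sample that assumes most genes do not change. It is called the value below. Of the 30090 genes in the explant table, 21442 reached a value of 1 in 3 or more of the 20 explant samples and were tested. The test was limma on log2(value + 1), and a gene is called where its Benjamini–Hochberg adjusted p is under 0.05 and its absolute log2 fold change is over 1. Fold changes are on the log2(value + 1) scale, which understates those of low genes. Gene names are used only for chromosome 1, where 860 of 1193 listed genes were tested and 589 of these carry a name from a SwissProt match. A name is therefore a best match, and the pseudo-alignment shares reads between close copies, so that values of members of multigene families are uncertain.

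The columns sum to between 1324627 and 1880536 in distal segments at 5 dpa and between 1024512 and 1276269 at 3 dpa, and depth cannot be read from them. Distal replicate 1 at 5 dpa stands apart, with the highest total of the 7 and 4660 genes listed at 0, against 2708 and 2838 in the other samples at 5 dpa and 1990 to 3226 at 3 dpa. Medial replicate 2 at 5 dpa (7439 genes at 0), medial replicate 2 at 3 dpa (6099) and proximal replicate 4 at 5 dpa (5436) also stand apart. Results are given with and without these samples where they matter. The nerve marker Elav4, an RNA-binding protein of neurons, was present in all 7 distal samples, at 38.3 to 54.0 at 5 dpa and 43.8 to 52.0 at 3 dpa. The choline transporter Sc5a7 was at 0.88 to 1.29 at 5 dpa and 1.19 to 1.70 at 3 dpa, and the muscle actin match Actc-13 was at 1.94 to 4.35 at 5 dpa and 2.48 to 3.51 at 3 dpa. The synaptotagmin match Syt17 lay at 0.14 to 1.42 at 5 dpa and 1.12 to 1.71 at 3 dpa. The muscle actin match Actc-14 did not pass the filter. The groups overlap for Elav4, Sc5a7, Syt17 and Actc-13. They do not for Actc-14, at 0 to 0.40 at 5 dpa and 0.42 to 0.46 at 3 dpa, or for Titin-35, a match to the giant sarcomere protein titin, at 1.98 to 2.31 at 5 dpa and 3.76 to 4.42 at 3 dpa. The part of muscle in the results below was not tested. In such whole segments fewer cells of a type and less RNA per cell cannot be told apart.

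Between 3 and 5 dpa, 107 genes were called higher in distal segments (0.499% of the genes tested) and 72 were called lower (0.336%). With no limit on the fold, 273 genes rose (1.27%) and 169 fell (0.788%). The median log2 fold change over all genes tested was -0.03. The called genes that rose had a median of 15.7 over their mean values at 5 dpa and of 5.54 at 3 dpa, and the genes that fell had 5.09 at 5 dpa and 14.6 at 3 dpa. Of the 107 genes called higher, 21 reached a mean of 100 or more in 1 of the groups, as did 9 of the 72 called lower. Of all 21442 genes tested, 887 did. No gene called higher was listed at 0 in every sample at 3 dpa, and 1 gene called lower was at 0 in every sample at 5 dpa. Of all genes tested, 21.9% had distal groups that did not overlap, and so did all 179 called genes.

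**Figure D1:**
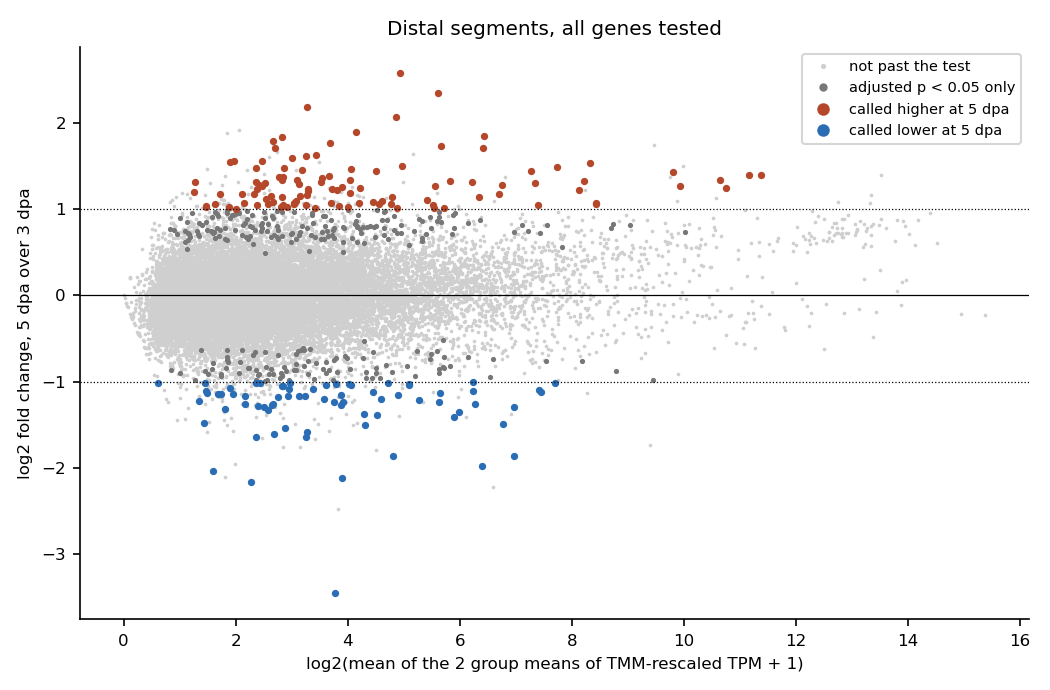
Log2 fold change of each of the 21442 genes tested (y axis, 5 dpa over 3 dpa in distal segments) against the log2 of its mean level in distal segments (x axis, TMM-rescaled TPM plus 1). Red points are the 107 genes called higher at 5 dpa, blue points the 72 called lower, dark grey points those past the adjusted p alone, and dotted lines mark a log2 fold change of 1 in either direction.

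The called genes moved alike in the 3 samples at 5 dpa. Relative to the mean at 3 dpa, the median log2 difference of the genes called higher was 1.43 in replicate 1, 1.31 in replicate 2 and 1.07 in replicate 5, and the 4 samples at 3 dpa lay between -0.04 and 0.07. For the genes called lower it was -1.29, -1.16 and -1.19 in the same 3 samples, and between -0.15 and 0.25 at 3 dpa. These medians are descriptive, since the same values chose the genes. Without replicate 1 at 5 dpa, 55 genes were called higher and 45 lower, of which 52 and 36 were among the calls over all samples. Without replicate 3 at 3 dpa, 66 were called higher, and without replicate 1 at 3 dpa, 41 were called lower. Of the 107 and 72 genes, 43 and 23 were called when each of the 7 distal samples was left out in turn. With equal column totals in place of TMM, the median of all genes was -0.30 and the calls were 29 higher and 214 lower, so the balance of higher and lower calls depends on the scaling. None of the 179 called genes changed sign with equal totals.

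The genes with the largest changes are on chromosomes for which no name is used here. Given first are the 2 in each direction with the largest change among called genes with a mean of 10 or more. AFI10151 was at 57.9, 47.0 and 48.3 in the 3 samples at 5 dpa, against 7.59, 6.86, 8.50 and 7.76 in the 4 samples at 3 dpa. Every sample at 5 dpa lay above every sample at 3 dpa, with a log2 fold change of 2.58 ± 0.15 (SE) and a limma adjusted p of 1.94e-08. AFI01520 was at 68.2, 113 and 62.2 at 5 dpa, against 18.9, 16.1, 11.9 and 12.3 at 3 dpa (log2 fold change 2.35 ± 0.34, adjusted p = 1.30e-03). Its samples at 5 dpa were high but spread, replicate 2 being the highest. AFI19520 was at 1.21, 1.11 and 1.44 at 5 dpa, against 21.5, 28.2, 28.9 and 17.9 at 3 dpa. This gene fell by 3.46 ± 0.28 on the log2 scale (adjusted p = 1.75e-06), the largest change of any gene tested. AFI23646 was at 10.6, 3.44 and 1.63 at 5 dpa, against 21.5, 14.6, 17.7 and 36.1 at 3 dpa (log2 fold change -2.11 ± 0.42, adjusted p = 0.0138). Both groups are spread for this gene, and its adjusted p was 0.067 without replicate 2 at 5 dpa and 0.0729 without replicate 5 at 5 dpa, within a range of 2.86e-03 to 0.0729 over its alternatives.

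**Figure D2:**
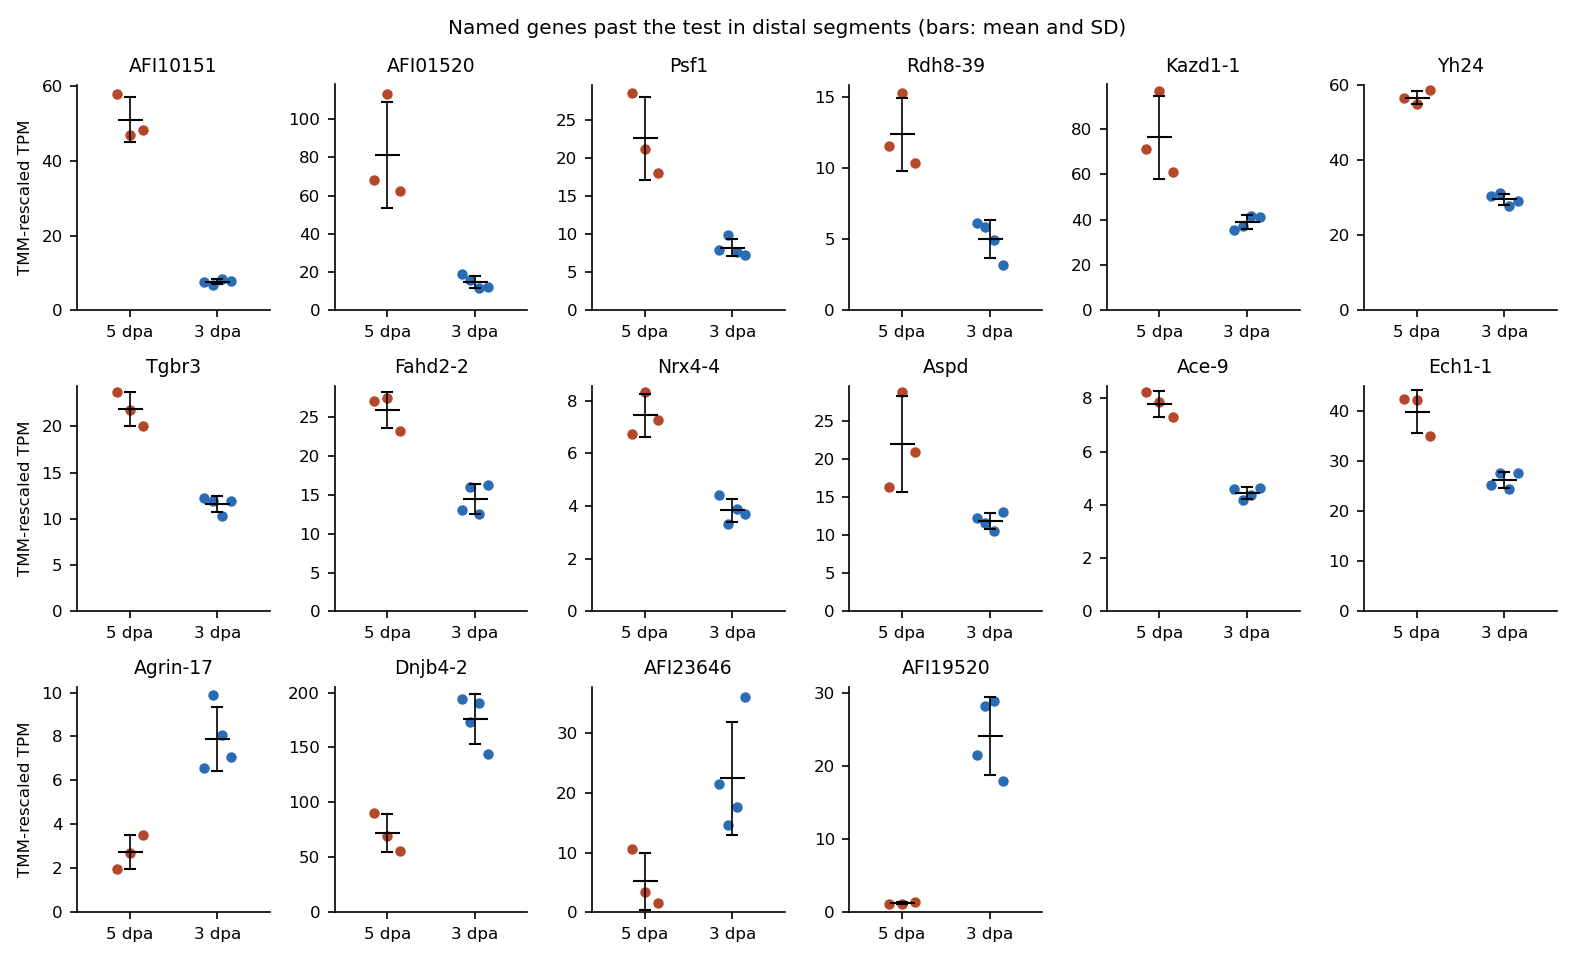
Values (y axis, TMM-rescaled TPM, each panel on its own scale from 0) of 16 genes past the test in each distal sample. Of these, 4 are unnamed, the 2 with the largest change in each direction among called genes with a mean of 10 or more. The other 12 are chromosome 1 genes with a SwissProt match and a mean of 5 or more at 5 or 3 dpa. In each panel the 3 samples at 5 dpa are in red on the left and the 4 at 3 dpa in blue on the right. Black bars show the mean and SD. In all 16 panels the groups do not overlap, with 12 genes higher at 5 dpa and 4 lower.

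On chromosome 1, 4 genes were called higher and 4 lower (0.465% of 860 in each direction), and with no limit on the fold 15 rose (1.74%) and 6 fell (0.698%). Psf1 (AFI29993, chromosome 1, 46276098 to 46284188 in the study's assembly) matches a subunit of GINS, a complex of the replicative helicase that unwinds DNA at the fork. It was at 28.6, 21.2 and 18.0 at 5 dpa, against 7.98, 9.91, 7.72 and 7.32 at 3 dpa. The 3 samples at 5 dpa were all higher, with means of 22.6 ± 5.42 at 5 dpa (SD, n = 3) and 8.23 ± 1.15 at 3 dpa (SD, n = 4) and a log2 fold change of 1.34 ± 0.22 (limma adjusted p = 3.64e-03). Its adjusted p lay between 7.17e-04 and 0.033 over all 17 alternatives run. Unchar_13009 (AFI30027, 48016132 to 48050984), a gene without a SwissProt name that carries an AMP-binding domain, was at 2.80, 2.95 and 1.66 at 5 dpa and at 0.23, 0.59, 0.27 and 0.42 at 3 dpa (log2 fold change 1.32 ± 0.20, adjusted p = 1.67e-03). It was a low gene at both days and was named after its values were seen, as were the other genes below whose names begin with Unchar. Unchar_13197 (AFI30471), with a LURAP domain, averaged 2.72 ± 0.64 at 5 dpa and 0.82 ± 0.34 at 3 dpa (log2 fold change 1.04 ± 0.22, adjusted p = 0.0212), and its test was lost without replicate 1 (0.119) or 5 (0.0636) at 5 dpa or replicate 1 (0.0745) at 3 dpa.

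Rdh8-39 (AFI29997, 52675612 to 52679073) matches a retinol dehydrogenase of the short-chain dehydrogenase family, enzymes that interconvert retinal and retinol. It was at 11.6, 15.3 and 10.3 at 5 dpa, against 6.15, 5.87, 4.93 and 3.20 at 3 dpa (log2 fold change 1.16 ± 0.22, limma adjusted p = 8.35e-03). Fahd2-2 (AFI31196) matches a hydrolase of the fumarylacetoacetase family and averaged 25.9 ± 2.33 at 5 dpa and 14.5 ± 1.94 at 3 dpa. Aspd (AFI31333) matches an aspartate dehydrogenase and was at 16.3, 28.8 and 21.0 at 5 dpa, against 12.4, 11.7, 10.6 and 13.1 at 3 dpa. Ech1-1 (AFI30180) matches an isomerase used in the breakdown of unsaturated fatty acids, and it averaged 39.8 ± 4.24 at 5 dpa and 26.2 ± 1.61 at 3 dpa. These 4 genes had adjusted p-values between 8.35e-03 and 0.0377, and log2 fold changes of 0.58 to 1.16. All of them missed the threshold after rescaling to the same total. Without 1 distal sample, the test was lost for Fahd2-2 in 7 of 7 fits, for Aspd and Ech1-1 in 6 of 7, and for Rdh8-39 only without replicate 2 at 5 dpa (0.0576). Unchar_13101 (AFI30245), with domains of the TauD oxygenase family, averaged 18.2 ± 1.73 at 5 dpa and 10.2 ± 0.90 at 3 dpa (adjusted p = 0.0387), and its test was lost in 7 of 7 such fits.

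Yh24 (AFI30468, 59000347 to 59017098), which carries a domain of the leucine aminopeptidase family, was at 56.5, 54.9 and 58.6 at 5 dpa, against 30.3, 31.2, 27.8 and 29.1 at 3 dpa. Its spread within each group was small, and its log2 fold change was 0.92 ± 0.17 (limma adjusted p = 7.52e-03). Ace-9 (AFI31309) matches angiotensin-converting enzyme, a peptidase that trims peptides at their carboxyl end, and averaged 7.80 ± 0.48 at 5 dpa and 4.45 ± 0.22 at 3 dpa (adjusted p = 0.0441). Its adjusted p was the highest of the 15 genes that rose, and it was 0.082 to 0.161 without any 1 of the 7 distal samples. Kazd1-1 (AFI30208, 59106982 to 59116312), with an immunoglobulin domain, an IGFBP domain as in insulin-like growth factor binding proteins and a Kazal domain as in serine protease inhibitors, was at 71.3, 96.5 and 61.1 at 5 dpa, against 35.5, 37.1, 41.6 and 41.4 at 3 dpa (adjusted p = 0.0411). The groups are apart, but the test was lost in 6 of the 7 fits without 1 distal sample (adjusted p of 0.0486 to 0.176). Agrin-17 (AFI31864, 43767415 to 43840606) matches agrin, a basement membrane proteoglycan of the neuromuscular junction in vertebrates, and carries Kazal and Kunitz domains. It was at 1.98, 2.70 and 3.52 at 5 dpa, against 6.58, 9.88, 8.06 and 7.07 at 3 dpa, and fell by 1.26 ± 0.27 on the log2 scale (adjusted p = 0.0212). Its test was lost without replicate 1 (0.12) or 2 (0.0748) at 5 dpa and without replicate 2 (0.0668) or 3 (0.0624) at 3 dpa, and its adjusted p was 7.23e-04 to 0.12 over all alternatives.

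Tgbr3 (AFI31491, 35000360 to 35084010) matches betaglycan, a co-receptor that presents TGF-beta ligands, and carries the zona pellucida domain that betaglycan has. It was at 23.7, 21.8 and 20.1 at 5 dpa, against 12.2, 11.9, 10.3 and 11.9 at 3 dpa (log2 fold change 0.86 ± 0.17, limma adjusted p = 0.0134). Unchar_13305 (AFI30705, 35090259 to 35107058) lies 6249 bases away on the same strand, with 1 listed gene between, and also carries a zona pellucida domain. It was at 21.4, 13.7 and 13.1 at 5 dpa, against 9.45, 7.78, 6.91 and 8.29 at 3 dpa (adjusted p = 0.0212), so both genes were higher in all 3 samples at 5 dpa. Each lost the test in 3 of the 7 fits without 1 distal sample, Tgbr3 without replicate 1 or 2 at 5 dpa or 3 at 3 dpa, and Unchar_13305 without replicate 1 at 5 dpa or 2 or 3 at 3 dpa. Nrx4-4 (AFI31963) matches neurexin-4, a protein of septate junctions in *Drosophila*, and averaged 7.44 ± 0.81 at 5 dpa and 3.83 ± 0.45 at 3 dpa (adjusted p = 7.84e-03, and 0.0522 without replicate 2 at 5 dpa). Unchar_12939 (AFI29850), without a domain in the list, averaged 27.2 ± 3.71 at 5 dpa and 15.2 ± 1.87 at 3 dpa (adjusted p = 0.0163, and lost in 3 of those fits). With equal column totals, Psf1 and Unchar_13009 alone of the 15 genes that rose passed the test.

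Of the 6 chromosome 1 genes that fell, Dnjb4-2 (AFI31787, 46429840 to 46439281) had the highest level. It matches a DnaJ protein, a class of co-chaperones that hand unfolded proteins to Hsp70. It was at 90.8, 69.7 and 55.9 at 5 dpa, against 194, 173, 191 and 144 at 3 dpa. All samples at 5 dpa were lower, with a log2 fold change of -1.29 ± 0.25 (limma adjusted p = 0.0107), and the adjusted p was 0.0583 without replicate 5 at 5 dpa, within a range of 5.56e-03 to 0.0583 over the alternatives. Agrg7-5 (AFI31186), a match to an adhesion G protein-coupled receptor and a member of the study's curated immune genes, was at 0.64, 0.97 and 0.58 at 5 dpa, against 2.11, 2.48, 2.51 and 4.07 at 3 dpa. Its log2 fold change was -1.12 ± 0.21 (adjusted p = 8.36e-03), at a low level on both days. In proximal segments it was also called lower, at 3.64 ± 1.67 at 5 dpa and 9.27 ± 1.54 at 3 dpa (log2 fold change -1.19, adjusted p = 0.0451), and in medial segments it averaged 0.45 at 5 dpa and 0.43 at 3 dpa. The other 3 genes have no SwissProt name. Unchar_12911 (AFI29766), a gene with an EGF domain that the study lists as found in *A. filiformis* alone, averaged 9.79 ± 1.18 at 5 dpa and 21.5 ± 4.01 at 3 dpa (adjusted p = 5.80e-03). Unchar_13419 (AFI30993), of the same age class, averaged 5.72 ± 0.72 at 5 dpa and 9.53 ± 0.93 at 3 dpa, and Unchar_13047 (AFI30108), listed as found in Asterozoa, the sea stars and brittle stars, averaged 9.03 ± 1.37 at 5 dpa and 15.8 ± 2.22 at 3 dpa. These last genes, Unchar_13419 and Unchar_13047, lost the test in 6 of the 7 fits without 1 distal sample and with equal totals, whereas Agrg7-5 and Unchar_12911 passed in all 7.

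Gene lists drawn from chromosome 1 names and domains were mostly without calls, and each is described by its counts and its median beside that of all genes, -0.03. Of all genes tested, 1.27% rose and 0.788% fell past the adjusted p alone. At these shares, a list this short with none past the test says little about its members. With equal column totals all list medians were negative, so each positive median below depends on the scaling, and only its place relative to all genes can be set against that. The splicing, at -0.09 relative to all genes, and C-type lectin lists, at 0.04, changed sides in that respect. In a limma fit of the distal groups alone, 9 of the genes named here that miss the test below passed it. The adjusted p in that fit was 0.0249 for H331, 0.0216 for Lsm7 and Rl3, 0.0254 for Fgfr1-6 and 0.0477 for Ptprm-8. It was 0.0393 for Gabr2-66, 0.0263 for Titin-35, 0.0255 for Gstt3-2 and 0.0141 for Acsf2-49. Of 15 tested genes of the cell cycle and DNA replication, 1 rose (Psf1), none fell, and the median log2 fold change was 0.17. The histone H3 match H331 had the highest level of them, at 6099, 6098 and 5829 at 5 dpa, against 3749, 3562, 3700 and 3519 at 3 dpa. Its groups do not overlap, but its adjusted p was 0.144 (log2 fold change 0.73 ± 0.25), and Top3a, a topoisomerase that untangles DNA strands, averaged 2.92 at 5 dpa and 1.77 at 3 dpa (adjusted p = 0.185). None of 7 DNA repair genes passed, with a median of 0.25. Mutyh, a glycosylase that removes mispaired adenine, and Xrcc3, a recombination repair protein, had log2 fold changes of 0.56 ± 0.18 and 0.59 ± 0.20, with adjusted p-values of 0.109 and 0.14. Ercc8, of transcription-coupled repair, had 0.25 with overlapping groups.

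No member of the ribosome, mitochondrial, splicing or ER and secretory lists was called, and of these the ribosome and mitochondrial lists had medians above that of all genes under both scalings. Among 22 ribosome and translation genes the median was 0.12. Rl3, a protein of the large ribosomal subunit, was at 3247, 3317 and 3282 at 5 dpa, against 1922, 1717, 1477 and 1972 at 3 dpa. These groups are far apart relative to their own spread, with a log2 fold change of 0.90 ± 0.30, but the adjusted p was 0.129 in the fit that shares 1 spread over all 6 groups and 0.0216 in a fit of the distal groups alone, over a range of 0.0215 to 0.288 in its alternatives. Rl37, of the same subunit, was at 26100, 15600 and 14140 at 5 dpa, against 12420, 10860, 8752 and 7803 at 3 dpa (adjusted p = 0.253). Sylc, the leucine-tRNA ligase, had a log2 fold change of 0.17. Among 17 mitochondrial genes the median was 0.23, and 14 had a positive fold change, as did 10082 of all 21442 genes tested. Over all genes the positive share rose with level, from 44.8% at a mean of 1 to 10 to 54.8% at 10 to 100 and 63.0% at 100 to 1000. The count of this list was not set against genes of like level. Clpp, the mitochondrial Clp protease, averaged 69.9 at 5 dpa and 43.5 at 3 dpa (adjusted p = 0.103), and Atp5h, a subunit of ATP synthase, averaged 809 at 5 dpa and 542.5 at 3 dpa (adjusted p = 0.166). The splicing list of 13 genes had a median of -0.01. Within it Lsm7, of the ring that binds the end of U6 RNA, had a log2 fold change of 0.83 ± 0.26 (adjusted p = 0.108) and Ytdc1, a nuclear reader of methylated RNA, one of -0.50 ± 0.23 (adjusted p = 0.282). The ER and secretory list of 18 genes had a median of -0.12, with 16 negative fold changes, against 11359 among all 21442 genes tested. In it Hs90b, a match to the cytosolic chaperone Hsp90-beta, was at 235, 241 and 216 at 5 dpa and 323, 272, 293 and 556 at 3 dpa (adjusted p = 0.466), and Emc7-2, of the ER membrane complex, had -0.38 with overlapping groups.

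**Figure D3:**
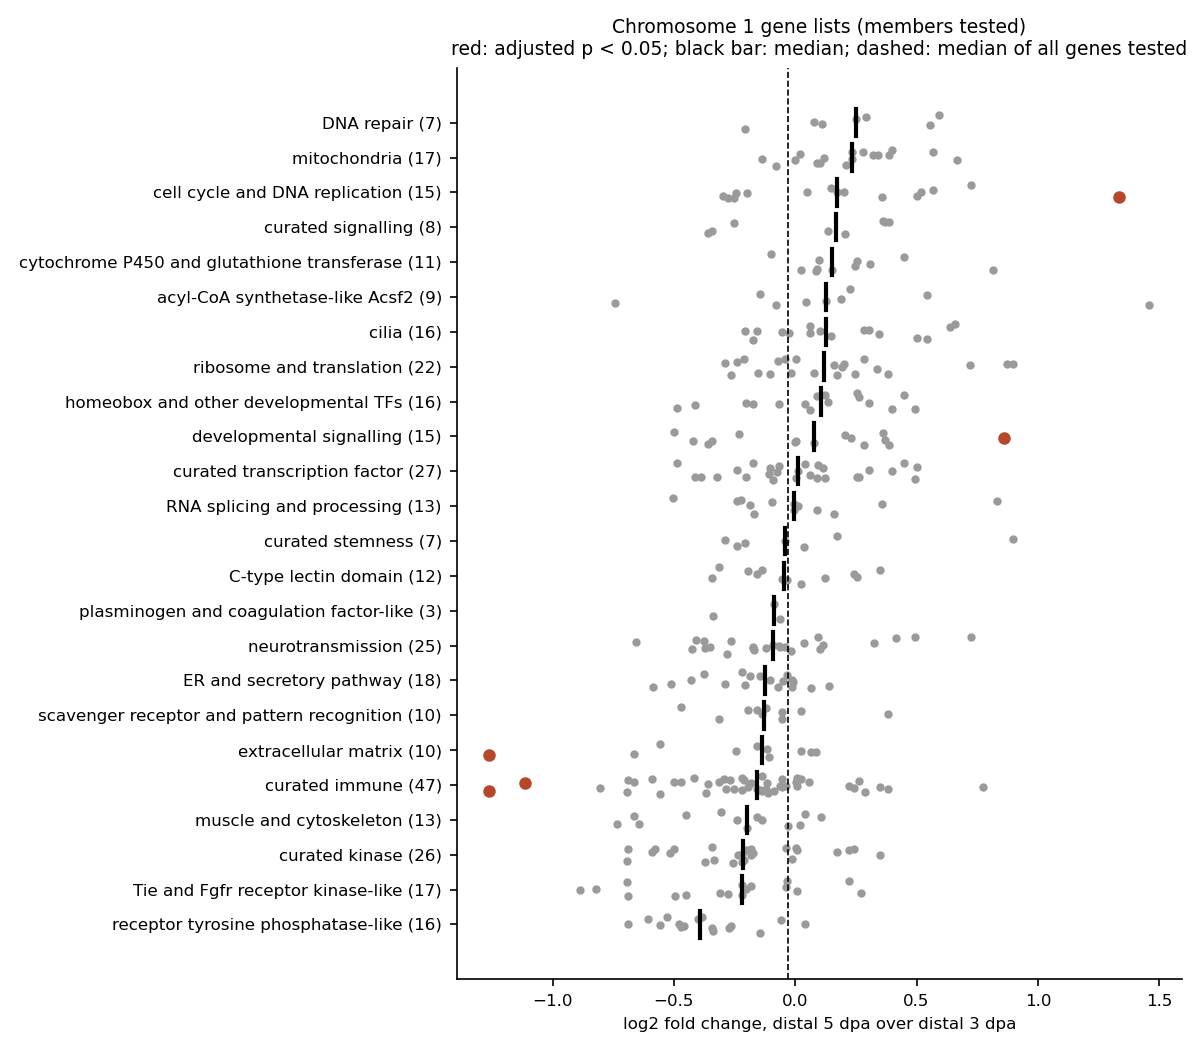
Log2 fold change (x axis, distal 5 dpa over distal 3 dpa) of the tested members of 24 chromosome 1 gene lists (rows, number tested in brackets). Each point is a gene, red where its adjusted p is under 0.05, black bars are list medians and the dashed line is the median of all genes tested, -0.03. Red points appear in 4 lists, and genes in several lists are drawn in each.

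Of 16 tested genes of cilia, none passed, and the median was 0.13. Their summed value was 72.0 to 81.2 at 5 dpa and 57.3 to 63.3 at 3 dpa. Tekt4, a tektin filament protein of the axoneme, was at 6.03, 3.87 and 5.25 at 5 dpa, against 3.38, 3.23, 1.92 and 3.02 at 3 dpa (adjusted p = 0.108). Rsph9, of the radial spoke head, had a log2 fold change of 0.66 ± 0.22 (adjusted p = 0.138), and Ift25, of intraflagellar transport, had 0.06. Of 13 muscle and cytoskeleton genes none passed, the median was -0.20, and the summed value was 617.6 to 752.5 at 5 dpa and 697.9 to 789.4 at 3 dpa. Titin-35, given above, had a log2 fold change of -0.67 ± 0.21 (adjusted p = 0.111), and Mrtfb-2, a myocardin-related coactivator, had -0.73 ± 0.24 (adjusted p = 0.119).

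Of 25 neurotransmission genes none passed, and the median was -0.09. Ach10-33, an acetylcholine receptor subunit match, was at 4.70, 5.45 and 5.20 at 5 dpa, against 2.02, 2.23, 3.01 and 3.78 at 3 dpa (log2 fold change 0.73 ± 0.20, adjusted p = 0.0673). Gabr2-66, a GABA-B receptor subunit match, had the opposite order, at 0.59, 0.72 and 0.66 at 5 dpa and at 2.03, 1.42, 1.57 and 1.45 at 3 dpa (-0.66 ± 0.18, adjusted p = 0.0649). The most abundant member, the acetylcholine receptor match Acha6-7, had -0.42 with overlapping groups. Both receptor types mediate synaptic signals, acetylcholine receptors as ion channels and GABA-B receptors through G proteins.

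Of the receptor-like families, 16 receptor tyrosine phosphatase-like genes had the lowest median of all lists, -0.39. A negative fold change was found for 15 of the 16, and for 11359 of all 21442 genes tested. No member passed the test, though 10 of the 16 had lower groups that do not overlap, which 10.9% of all genes tested had. Ptprm-8 was at 3.98, 4.99 and 4.15 at 5 dpa, against 9.92, 7.0, 7.25 and 6.75 at 3 dpa (log2 fold change -0.69 ± 0.22, adjusted p = 0.121). Ptpra-2 had -0.61 ± 0.24, and Ptprd-9, the most abundant, had 0.04. The same list had a median of -0.33 in medial and -0.60 in proximal segments. Such phosphatases remove phosphate from tyrosines that receptor kinases modify, and the 17 Tie and Fgfr receptor kinase-like genes had a median of -0.22 with no call. Fgfr1-6 was at 2.76, 2.78 and 3.27 at 5 dpa, against 7.02, 5.92, 4.67 and 6.42 at 3 dpa (-0.82 ± 0.24, adjusted p = 0.0828), Tie1-13 had -0.70 ± 0.28, and Tie2-25 had -0.22 with overlapping groups. Relative to the median of all genes, both families stayed below it after rescaling to the same total, by 0.32 and 0.23 on the log2 scale.

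Of 47 tested genes of the curated immune list, Agrin-17 and Agrg7-5 fell and none rose, and the median was -0.16. Of all genes tested, 0.788% fell and 1.27% rose. A negative fold change was found for 35 of the 47, and for 11359 of all 21442 genes tested. Groups that do not overlap were lower for 12 of the 47 and higher for 1, against 10.9% and 11.0% of all genes tested. The summed value of the list was 952.9 to 1411 at 5 dpa and 911.2 to 1096 at 3 dpa, with overlap. Most of it was Atf4, at 753 to 1180 at 5 dpa and 685.5 to 826 at 3 dpa, so the sum says little about the other members. Coca1-3, a collagen match that is also 1 of 10 tested extracellular matrix genes (median -0.14, Agrin-17 alone passing), was at 11.4, 12.1 and 14.7 at 5 dpa, against 28.4, 19.3, 17.9 and 18.4 at 3 dpa (adjusted p = 0.123). Co3-6, a match to complement component C3, the central protein of the complement cascade, was at 23.0, 14.7 and 18.6 at 5 dpa and at 13.1, 12.2, 12.7 and 18.6 at 3 dpa, with overlap and a log2 fold change of 0.38 ± 0.18 (adjusted p = 0.306). The 10 scavenger receptor and pattern recognition genes had a median of -0.13 and the 12 genes with a C-type lectin domain one of -0.05, with no call in either. C163b-8, a scavenger receptor match in both lists, had a log2 fold change of -0.31, and the lectin matches Lece-19 and Cl18a-1 had 0.35 and 0.12 with overlapping groups. The 3 plasminogen and coagulation factor-like genes tested, Fa9-10, Plmn-19 and Plmn-20, had fold changes of -0.34, -0.09 and -0.06 with overlapping groups.

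In the curated kinase list, none of 26 genes passed and the median was -0.22. Pakm, a match to a p21-activated kinase, had a log2 fold change of -0.58 ± 0.20 (adjusted p = 0.144), and Zap70, named after the kinase of T cell receptor signalling in vertebrates, had -0.59 ± 0.21 (adjusted p = 0.163), whereas Pdpk1, which activates Akt, had 0.17. None of 27 curated transcription factors passed, with a median of 0.01, and none of the 16 homeobox and other developmental factors. Dmta2, a doublesex-related factor, had 0.49 ± 0.20 and the zinc finger match Zn516 had -0.49 ± 0.19, and both had groups that do not overlap. Atf4, of the amino acid stress response, had 0.26 and Hif1a, the hypoxia-inducible factor, had 0.14. Of 15 developmental signalling genes Tgbr3 alone rose, with a median of 0.08, and the hedgehog-interacting protein-like matches Hipl1-1 and Hipl2 had 0.37 ± 0.16 and -0.36 ± 0.16. None of 8 curated signalling genes (median 0.17) or of 7 curated stemness genes (median -0.04) passed.

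Among 11 cytochrome P450 and glutathione transferase genes, enzymes of detoxification and lipid oxidation, 10 had a positive fold change, as did 10082 of all 21442 genes tested. None of the 11 passed (median 0.15). Gstt3-2, a theta-class glutathione transferase match, was at 32.2, 34.7 and 26.8 at 5 dpa, against 16.7, 16.99, 15.01 and 20.7 at 3 dpa (log2 fold change 0.81 ± 0.22, adjusted p = 0.064). Cp4f2-9 had 0.45 ± 0.13 (adjusted p = 0.085), and Cp4f6-3, the most abundant, had 0.31. Of 9 acyl-CoA synthetase-like Acsf2 genes (median 0.13), Acsf2-49 was at 10.7, 10.3 and 12.6 at 5 dpa, against 2.88, 2.62, 5.70 and 3.10 at 3 dpa. Its groups are well apart (1.46 ± 0.53), yet its adjusted p was 0.168, and 0.0141 in a fit of the distal groups alone (0.0141 to 0.419 over its alternatives), while its relative Acsf2-52 had -0.74 ± 0.31.

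The same comparison was made in the other segments. Their samples did not enter the distal fold changes, but they entered the filter and the estimate of spread behind the distal calls. In medial segments limma called no gene higher (0.0%) and 1 lower (0.00466%), AFI17232, named after its values were seen. By unadjusted p under 0.05, 1174 genes were higher there (5.48%), and without medial replicate 1 at 5 dpa 180 genes were called. In proximal segments 13 genes were called higher (0.0606%) and 8 lower (0.0373%), a count that changes to between 1 and 448 when 1 proximal sample is left out. The 107 genes called higher in distal segments had a median log2 fold change of 0.24 in medial and 0.57 in proximal segments, against 1.24 in distal ones. In sign, 77 of them were higher at 5 dpa in medial and 101 in proximal segments, where 10184 and 9863 of all 21442 genes were. The 72 genes called lower had medians of -0.60 in medial and -0.87 in proximal segments, against -1.19 in distal ones, and 65 and 71 of them were lower. Most of the distal genes thus had the same sign in the other segments. The distal medians are those the calls selected, so their size next to the others is not a test.

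**Figure D4:**
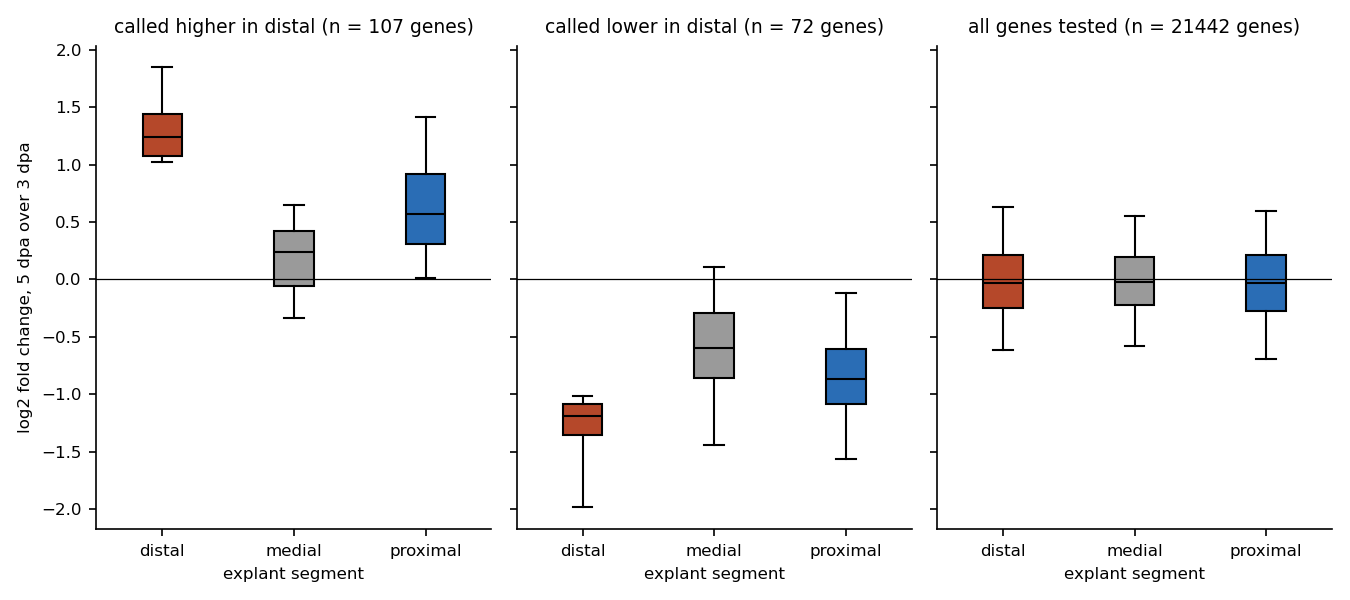
Log2 fold change (y axis, 5 dpa over 3 dpa) in distal, medial and proximal segments for the 107 genes called higher in distal segments, the 72 called lower and all 21442 genes tested. Boxes span the quartiles with the median as a line, and whiskers reach the 5th and 95th percentiles. The medians of the called genes have the same sign in all 3 segments, and are nearer 0 in medial (0.24 and -0.60) and proximal (0.57 and -0.87) ones.

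The difference of the changes was tested directly. By the same thresholds, the distal change lay above the medial one for 18 genes (0.0839%) and below it for 1 (0.00466%). The latter is AFI19520, which fell more steeply in distal segments. With equal column totals the counts above and below were 1, AFI10151, and 0. Against proximal segments limma called 1 gene with a larger change (0.00466%) and none with a lower one, where 380 genes (1.77%) had an unadjusted p under 0.05. AFI21182, this gene, was at 16.04, 16.6 and 12.1 in distal samples at 5 dpa, against 2.16, 2.75, 2.83 and 2.14 at 3 dpa. It averaged 3.36 at 5 dpa and 2.66 at 3 dpa in medial segments, and 4.79 at 5 dpa and 2.81 at 3 dpa in proximal segments. Its distal change was larger by 1.58 ± 0.23 on the log2 scale than the proximal one (limma adjusted p = 0.0353) and by 1.92 ± 0.22 than the medial one (adjusted p = 4.59e-04). It was named after its values were seen. Its difference from proximal segments missed the threshold in 14 of 18 alternatives. These include 6 of the 7 fits without 1 distal sample, equal column totals, the replicate block (0.0716) and the block nested in day (0.284). Its difference from medial segments missed it with equal totals alone (0.282).

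AFI10151 averaged 51.1 ± 5.99 in distal segments at 5 dpa and 7.68 ± 0.67 at 3 dpa, 6.54 ± 0.32 and 4.72 ± 0.87 in medial segments at 5 and 3 dpa, and 18.0 ± 3.40 and 6.05 ± 0.57 in proximal segments at 5 and 3 dpa. The distal change was larger than the medial by 2.17 ± 0.21 on the log2 scale (limma adjusted p = 1.11e-04), and larger than the proximal by 1.17, which did not pass (adjusted p = 0.131). AFI19520 averaged 1.25 in distal segments at 5 dpa and 24.1 at 3 dpa, 2.77 and 7.88 in medial, and 7.93 and 39.5 in proximal segments. Its fall was steeper in distal than in medial segments by 2.22 ± 0.40 (adjusted p = 0.0281), and its change in proximal segments, -2.13, also passed (adjusted p = 7.80e-03). The difference from medial segments missed the threshold in 13 of 18 alternatives, among them 6 of the 7 fits without 1 distal sample, equal column totals (0.172), the replicate block (0.0777) and the fit without the 3 medial and proximal samples that stand apart (0.141), over a range of 0.0175 to 0.212. AFI01520 averaged 81.1 ± 27.7 in distal segments at 5 dpa and 14.8 ± 3.34 at 3 dpa, 12.4 ± 9.15 and 10.4 ± 3.50 in medial, and 11.0 ± 2.56 and 14.4 ± 1.86 in proximal segments. Its differences of 2.29 and 2.73 on the log2 scale did not pass (adjusted p = 0.0974 and 0.131). AFI23646 had log2 fold changes of -2.11 in distal, -1.59 in medial and -1.56 in proximal segments.

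None of the chromosome 1 genes had a change that differed between segments past the threshold. For Psf1 the difference from medial segments was 1.54 on the log2 scale (limma adjusted p = 0.0798), where it averaged 4.25 ± 0.96 at 5 dpa and 5.00 ± 0.59 at 3 dpa. For Dnjb4-2 it was -1.59 (adjusted p = 0.128), with averages of 47.5 ± 13.7 at 5 dpa and 39.5 ± 14.9 at 3 dpa in medial segments. Hsdl2-2, a hydroxysteroid dehydrogenase-like match, had a distal change of 0.41 and a medial one of -0.46 (adjusted p of the difference = 0.137), and the glycoprotein hormone subunit match Gphb5-1 had -0.36 and 0.38 (0.454). Against proximal segments the smallest adjusted p among chromosome 1 genes with a SwissProt name was 0.769, for Rdh8-39, at 1.18 on the log2 scale. For Dnjb4-2 the difference was -1.20 (adjusted p = 0.908), with averages of 84.0 at 5 dpa and 89.7 at 3 dpa in proximal segments. The other genes among the 3 named ones with the smallest p in each direction of that comparison were Aofa-4, a monoamine oxidase match, the kinase match M3k20-33, Teff2, a tomoregulin match, and Vatd, a subunit of the proton-pumping V-ATPase. Their distal log2 fold changes were 0.10, 0.14, -0.71 and -0.21, and these distal changes had adjusted p-values of 0.114 or more. For Yh24, Kazd1-1, Tgbr3, Nrx4-4 and Ace-9 the distal log2 fold changes were 0.69 to 0.93 and the proximal ones 0.53 to 0.76, and their differences of 0.03 to 0.39 had an adjusted p of 1.

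A pair of genes that the study names by identifier and contrasts between ends were followed across days. AFI33635, which the study describes as having thyroglobulin and methyltransferase domains, was at 2.44, 2.87 and 2.55 at 5 dpa, against 4.42, 6.22, 6.75 and 3.15 at 3 dpa. All samples at 5 dpa were lower, but the log2 fold change of -0.72 ± 0.32 did not pass (limma adjusted p = 0.268). AFI18858, with a B-box zinc finger as in TRIM proteins, was at 6.43, 1.90 and 3.63 at 5 dpa, against 5.72, 3.67, 5.38 and 4.22 at 3 dpa, and the groups overlap (adjusted p = 0.672).

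The time course, with 1 sample per stage and thus no test, gave another readout of the called genes. The 48 and 72 h post amputation (hpa) samples hold the arm segment at the wound, whereas stages 3 to 5 hold the regenerate alone, so the tissue differs as well as the time. From 72 hpa to stage 3, the 107 genes called higher had a median log2 difference of 1.62 and 80.4% had a positive one, against a median of -0.11 and 38% of all genes with a time course value. The 72 genes called lower had a median of -1.48 and 2.8% had a positive one. Rescaling the samples to the same total gave medians of 0.39, -2.35 and -0.68 for the 3 sets. AFI10151 was at 7.38 at 72 hpa and 125 at stage 3, AFI01520 at 13.7 and 177, and Psf1 at 4.94 and 27.2. AFI19520 had values of 22.0 in the control arm, of 127 and 43.0 at 48 and 72 hpa, and of 0.15 or less in the 5 later samples. In the time course as deposited, some chromosome 1 genes past the test had the opposite order to their distal change. Of those that rose, Tgbr3 was at 6.10 at 72 hpa and 2.07 at stage 3, Unchar_13305 at 4.38 and 0.83, and Unchar_13101 at 6.04 and 1.09. Unchar_13047, which fell, was at 0.65 and 1.86. The column totals were 612357 at 72 hpa and 1866500 at stage 3, so equal totals would lower stage 3 against 72 hpa. The rise of Unchar_13047 was smaller than that of the totals. So was that of some genes that rose in distal segments, such as Yh24, at 19.55 at 72 hpa and 29.48 at stage 3. The order of such genes depends on the scaling.

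Grouped by the time course sample in which each gene had its highest value, the share called higher was largest for the 50% distal sample, distal segments of a later regenerate taken without its tip. Of 1178 genes that peaked there, 39 were called higher (3.31%) and none lower, against 0.711% higher and 0.459% lower among the 15047 genes with a time course value of at least 1. Of 1929 genes that peaked at 48 hpa, 4 were called higher (0.207%) and 27 lower (1.40%). Of the 69 genes called lower in this set, 27 peaked in the control arm, 27 at 48 hpa and 12 at 72 hpa, and 3 in any later stage. With equal totals in the time course these counts were 5, 34, 24 and 6, so the number that peaked in the control arm depends on the scaling. After rescaling to the same total the 50% distal stage again had the highest share called higher (4.15% of 602 genes) and 48 hpa the highest share called lower (1.56% of 2185 genes).

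**Figure D5:**
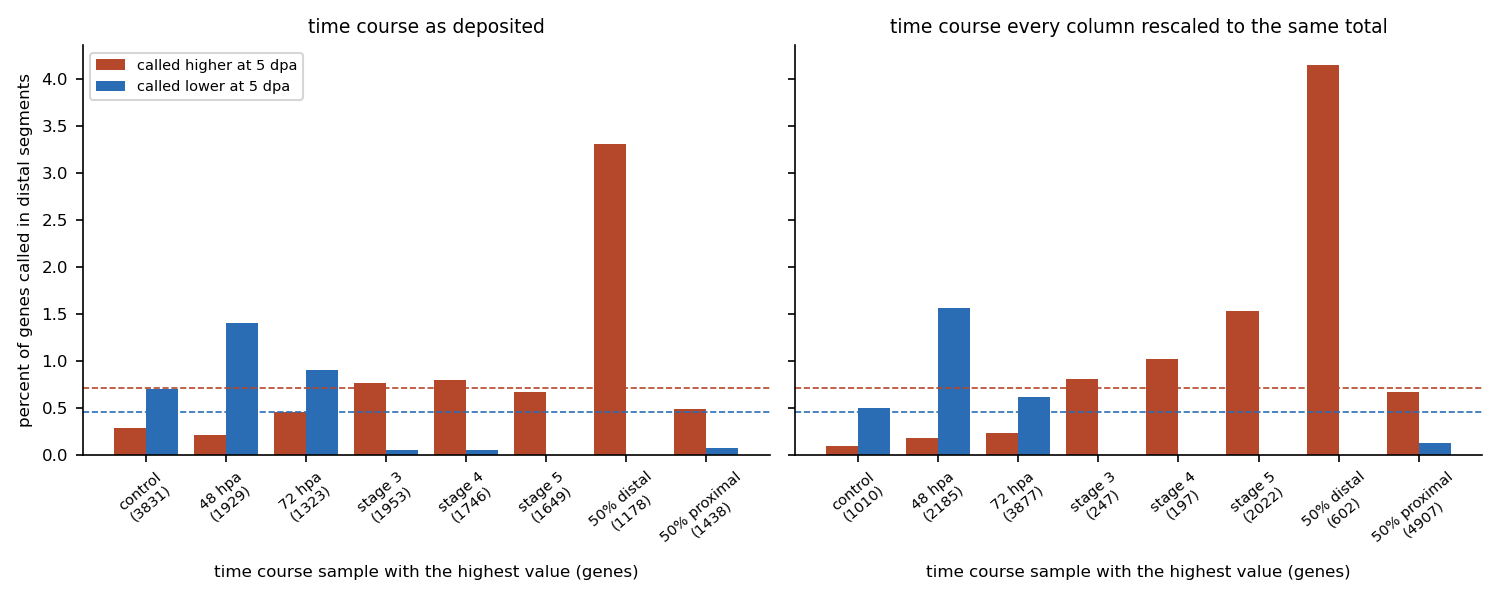
Percent of genes called higher (red) or lower (blue) in distal segments at 5 dpa against 3 dpa (y axis), grouped by the time course sample with the gene's highest value (x axis, number of genes in brackets). The left panel uses the time course as deposited and the right panel the same table with every sample rescaled to the same total. Dashed lines are the shares over all stages, 0.711% and 0.459%, and the tallest bars, 3.31% and 4.15%, are those of the 50% distal stage.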

How the data were processed

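RNA-seq tables of 20 explant samples and 8 time course samples were used as the authors deposited them. Their values are a normalized signal, TPM from kallisto pseudo-alignment that the authors rescaled with TMM. TMM is stated in the methods for the time course and in the table's label for explants. Depth is unknown, and no counts were used. Samples were grouped by their labels. Values were tested as log2(value + 1), with a pseudocount of 1, in limma 3.58.1 (R 4.3.3). The fit held the 20 explants in 6 groups (14 residual degrees of freedom) and an intensity trend, and genes had to reach 1 in 3 or more samples. Other steps used Python 3.11.15, pandas 2.3.3 and matplotlib 3.10.9, and the fit was tested on simulated data. The members and lists were chosen with earlier results of these data known. Of these, 76 genes were named by a rule. It takes the 2 unnamed genes with the largest change in each direction among called genes whose groups do not overlap and whose higher mean is 10 or more. It also takes the named chromosome 1 genes past the test whose groups do not overlap and whose higher mean is 5 or more. From each list it takes the 2 members with the smallest p and the most abundant member. It adds the genes the study names by identifier, and the 3 named chromosome 1 genes per direction with the smallest p in each difference between segments. A further 9 were named after their values were seen. 1 gene that the rule names is not reported here. Alternatives changed the pseudocount, the filter, the samples in the fit, the scaling, the trend, the replicate block and single samples. The names, positions, domains and ages of chromosome 1 genes come from the study's gene list, of which the part for that chromosome was used.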

Additional observations from a re-analysis of the deposited data

Results flagged for a closer look

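In the 4 distal samples at 3 dpa, 9 of the 86 sets of values examined (85 genes and the column total) had 1 sample far from the other 3, where chance alone gives about 1 in 20. The sample apart was the highest for Ercc8 in replicate 3 (7.80), Coca1-3 in replicate 1 (28.4), Ptprm-8 in replicate 1 (9.92), Ptprd-9 in replicate 3 (11.3), Co3-6 in replicate 4 (18.6) and Acsf2-49 in replicate 3 (5.70). It was the lowest for Rsph9 in replicate 4 (5.52), Ptpra-2 in replicate 2 (4.31) and Hipl2 in replicate 4 (10.8). None of these 9 genes passed the test in distal segments.

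The change between 3 and 5 dpa differed between segments for 3 of the genes named here. For AFI10151 the distal change exceeded the medial one by 2.17 on the log2 scale, and for AFI19520 it was lower by 2.22 (a difference of -2.22). For AFI19520 that difference missed the threshold in 13 of 18 alternatives, with adjusted p-values of 0.0175 to 0.212 over them. For AFI21182 it exceeded the medial change by 1.92 and the proximal change by 1.58, and the second of these differences missed the threshold in 14 of 18 alternatives (0.0211 to 1).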

How the results depend on the processing

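Counts of calls are given as higher and lower for distal segments and as totals for the other comparisons. A fit of only the groups compared gave 141 higher and 112 lower in distal segments, 0 in medial and 0 in proximal segments. Rescaling to the same total gave 29 higher and 214 lower in distal segments, 0 in medial segments, 1 for the change in distal against medial segments and 0 for that against proximal segments. A pseudocount of 0.1 gave 2 in medial segments and 0 for distal against proximal change, no filter gave 0 and 0, and a minimum of 5 gave 6 and 2, with 50 in proximal segments. Without the intensity trend medial segments had 0. Left-out replicates gave 55 to 110 higher and 41 to 67 lower in distal segments, 0 to 180 in medial and 1 to 448 in proximal segments, and 11 to 22 and 0 to 1 for the changes against medial and proximal ones. In proximal segments it was leaving out replicate 5 at 5 dpa that gave 448, and in medial segments leaving out replicate 1 at 5 dpa that gave 180. Without the 3 medial and proximal samples that stand apart, chosen after seeing the data, 144 genes were higher and 113 lower in distal segments, with 0 in medial and 4 in proximal segments, and without distal replicate 1 at 5 dpa as well, 91 were higher and 77 lower, and 12 differed from medial change.

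The replicate numbers were not taken as pairs. Distal 5 and 3 dpa share only numbers 1 and 2, whose deviations from the group means correlate at 0.19 and -0.05. For the differences between segments, samples of 1 day that share a number correlate at -0.041 to 0.28 between distal and medial and at 0.086 to 0.32 between distal and proximal segments, and not every pair exceeds 0.1. The replicate block gave 174 higher and 95 lower in distal segments, 17 in medial and 39 in proximal segments. Nested in day, the fit that follows those pairs, the block gave 17 for distal against medial change and 0 for distal against proximal change. Under the block Ift25 (-0.10), Ptprd-9 (-0.058), Plmn-19 (0.16), Plmn-20 (0.02) and Aofa-4 (-0.19) changed sign.

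Fold changes that changed sign after rescaling to the same total were those of Ercc8 (-0.10), Ift25 (-0.30), Lece-19 (-0.02), Cl18a-1 (-0.25), Ptprd-9 (-0.31), Atf4 (-0.13), Cp4f6-3 (-0.084), Pdpk1 (-0.22), Sylc (-0.20), Hif1a (-0.25), Aofa-4 (-0.24) and M3k20-33 (-0.10), where the median of all genes was -0.30. Without 1 distal replicate the range was -0.63 to 0.045 for AFI18858, -0.21 to 0.32 for Aofa-4, -0.074 to 0.40 for Cl18a-1, -0.13 to 0.21 for Ift25, -0.25 to 0.062 for Plmn-19, -0.23 to 0.13 for Plmn-20 and -0.11 to 0.18 for Ptprd-9. Without the 3 samples that stand apart and distal replicate 1 at 5 dpa, Aofa-4 had -0.12. None of the genes in this paragraph passed the test in distal segments. In the time course, the same rescaling gave medians of 0.39 for the genes called higher, -2.35 for those called lower and -0.68 for all. The causes were not tested. Depth is unknown, so what it limits cannot be stated.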

Other observations

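The most abundant genes were higher at 5 dpa in distal segments as a class. Of 166 tested genes with a mean of at least 1000 over the 7 distal samples, 124 (74.7%) had a positive fold change, with a median of 0.60, against -0.05 for the 13785 genes with a mean of 1 to 10. They held 73.2% to 78.3% of the column total in the samples at 5 dpa and 68.1% to 71.9% in those at 3 dpa, shares that a scaling factor per sample does not change. The same 166 genes had a median of 0.17 in medial and 0.61 in proximal segments, and of 0.20 in distal segments after rescaling to the same total, where all genes had -0.30. Of these 166 genes, 4 were called higher and none lower, against 0.499% and 0.336% of all genes tested.

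A pair of the chromosome 1 genes that rose, Fahd2-2 (58995407 to 59000189, minus strand) and Yh24 (59000347 to 59017098, plus strand), lie 158 bases apart and are read away from each other, with no listed gene between. Kazd1-1 lies 89884 bases beyond Yh24, with 4 listed genes between.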
